A study of Mus musculus with 15 samples.

Results

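The mRNA described here are those of the Zfp genes of mouse CD8+ T cells, the largest named group of zinc finger genes in the mouse. Members were the rows whose symbol starts with Zfp followed by a digit, apart from Zfp36, Zfp36l1 and Zfp36l2, which belong to another family of RNA-binding proteins. In all, 307 members were measured, 306 among the 11262 genes quantified in naive and TCR activated cells and 292 among the 11211 quantified in cytotoxic T lymphocytes (CTL), and 291 were in both tables. The expression of each gene was given as FPKM, a level in fragments divided by the exon length of the gene and by the library size, which by the methods of the study was scaled by TMM in the first table, so that there a change is relative to the bulk of the genes.

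All cells carried the P14 transgenic TCR, which recognises the lymphocytic choriomeningitis virus peptide gp33-41, and the strain label is LCMV-P14 TCR transgenic. The first experiment used lymph nodes of female mice of 9 to 13 weeks, with 3 mice pooled per replicate and each pool divided among 3 conditions. Naive cells were sorted ex vivo as TCRb+ CD8+ CD62Lhi CD44lo. TCR activated cells received the peptide at 100 ng/ml together with IL-12 (2 ng/ml) and IL-2 (20 ng/ml) and were sorted as CD8+ after 24 h. PI3Kdi cells were cultured in the same way with 10 µM IC87114, an inhibitor of the PI3K catalytic subunit p110δ, so that both activated groups had received peptide, IL-2 and IL-12. In the second experiment P14 cells were activated for 48 h, expanded as CTL for 4 days in 20 ng/ml IL-2, washed on day 6 and then kept for 24 h with or without 20 ng/ml IL-2. The age and sex of the CTL donors and the sorting of the CTL are not given in the sources used here. Each of the 5 groups had 3 libraries. All 7 CD8 T cell identity genes examined, Cd8a and Cd8b1 among them, were present in every library, with summed levels of 4137 to 4480 FPKM in naive cells, 913 to 1060 after TCR activation, 1147 to 1312 with PI3Kdi, 1601 to 1663 in CTL with IL-2 and 2599 to 2862 in CTL without IL-2.

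Most Zfp genes encode C2H2 zinc finger proteins, in which each finger is a short loop held by a zinc ion and contacts a few bases of DNA, so that an array of fingers reads a longer sequence. Many of them also carry a KRAB domain, which recruits the corepressor TRIM28 and, through it, the histone methyltransferase SETDB1 and HP1 proteins, and KRAB zinc finger proteins are best known for silencing transposable elements. Other Zfp proteins act outside this system, as transcription activators, RNA-binding proteins or ubiquitin ligases, because the symbol was given for the finger and not for the function.

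The encoded proteins carried these features. Among the 305 members with a protein in the GENCODE annotation of GRCm38, 297 (97.4%) held at least 1 match to the C2H2 finger pattern, against 2.09% of the 11039 other genes of the tables with a protein. A KRAB A box pattern was found in 165 members (54.1%) and in 0.39% of the other genes. The proteins of Zfp259, Zfp326, Zfp330, Zfp365, Zfp703, Zfp781, Zfp839 and Zfp935 had no match to the finger pattern, and for Zfp259 the present RefSeq symbol is Zpr1. In all, 14 members are listed in RefSeq under another symbol today, and their former symbol is used here. The genes lay in runs along the chromosomes. With neighbours joined when less than 1 Mb apart, the largest run held 20 members, all 20 with KRAB, at chr13:67038594-67827000 (GRCm38). Other runs held 19 members at chr17:21008941-23564226 and 15 at chr7:29768552-30169775.

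RefSeq promoters of GRCm38, from 250 bases before to 50 after the start of a transcript, were matched for 257 members. They held a median of 16 CpG, against 22 in the other genes of the tables, and KRAB members held 11 against 22.5 in members without KRAB. A GC box (GGGCGG, on either strand) was present in 50.6% of the members and in 69.6% of the 9221 other genes of the tables. The ETS letters CCGGAAG were found in 23.3% and 21.2%, the E-box CACGTG in 8.95% and 12.1%, the CRE TGACGTCA in 5.06% and 3.65%, NRF1 in 3.89% and 2.42% and YY1 in 1.56% and 1.93%. No motif contains another. Over all 32851 promoter windows of the RefSeq table the shares were 35.7%, 8.86%, 7.15%, 1.79%, 0.971% and 0.633%. One further motif, ACTACANNT, was chosen after sequences of members had been seen, and its letters are the start of the element known for the factor ZNF143. It was present in 52 members (20.2%), in 26.7% of KRAB members and 11.8% of those without KRAB, against 6.43% of the other genes and 4.16% of all windows. Its share differed between the runs of over 5 members: 17 of the 18 promoters of the chromosome 13 run held it, as did 10 of 14 in the chromosome 7 run of 15 members and 6 of 10 in another run of 11 members on that chromosome. In 3 more runs 2 of 6, 2 of 10 and 1 of 6 promoters held it, and in the other 5 runs with a matched promoter, the chromosome 17 run of 19 members (0 of 17 promoters) among them, none did.

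The 250 bases before the start of a RefSeq transcript are shown for 5 members, 5′ to 3′ on the strand of the gene. That start can lie inside the gene. The stretches of Zfp260 and Zfp874b lie within the gene spans given below, and that of Zfp945 lies partly within its span. Zfp874a (chr13:67451625-67451874, minus strand) and Zfp874b (chr13:67484254-67484503, minus strand) are neighbours in the chromosome 13 run, Zfp260 (chr7:30094826-30095075, plus strand) lies in the chromosome 7 run, Zfp945 (chr17:22867135-22867384, minus strand) fell furthest upon TCR activation and Zfp296 (chr7:19577037-19577286, plus strand) rose furthest. Capitals mark matches to the GC box, ETS, E-box, CRE and ACTACANNT on either strand. Each of the first 3 holds 1 copy of ACTACANNT, read on the other strand, and Zfp874a and Zfp874b also share a CRE, 10 and 12 bases before the start. Zfp945 holds 1 ETS and 1 GC box match, and Zfp296 holds 3 GC boxes. A match describes the letters and does not show that a factor binds.
Zfp874a: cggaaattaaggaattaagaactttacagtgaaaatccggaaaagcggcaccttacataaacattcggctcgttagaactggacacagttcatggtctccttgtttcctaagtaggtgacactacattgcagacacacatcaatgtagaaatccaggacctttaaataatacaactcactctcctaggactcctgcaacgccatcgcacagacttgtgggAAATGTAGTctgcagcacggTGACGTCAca
Zfp874b: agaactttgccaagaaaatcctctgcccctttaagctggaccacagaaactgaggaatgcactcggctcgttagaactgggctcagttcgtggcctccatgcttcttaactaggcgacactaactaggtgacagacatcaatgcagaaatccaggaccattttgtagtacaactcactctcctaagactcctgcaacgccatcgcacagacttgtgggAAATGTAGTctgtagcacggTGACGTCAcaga
Zfp260: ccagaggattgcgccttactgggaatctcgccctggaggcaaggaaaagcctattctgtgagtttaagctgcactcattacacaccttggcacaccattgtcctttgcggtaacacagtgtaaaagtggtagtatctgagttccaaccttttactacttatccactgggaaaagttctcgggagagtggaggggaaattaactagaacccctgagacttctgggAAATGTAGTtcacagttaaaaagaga
Zfp945: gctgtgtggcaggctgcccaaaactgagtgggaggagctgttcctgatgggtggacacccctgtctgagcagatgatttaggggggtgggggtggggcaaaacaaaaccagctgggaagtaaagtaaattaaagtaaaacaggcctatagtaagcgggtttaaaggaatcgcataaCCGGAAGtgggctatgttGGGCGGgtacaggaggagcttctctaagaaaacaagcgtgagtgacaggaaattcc
Zfp296: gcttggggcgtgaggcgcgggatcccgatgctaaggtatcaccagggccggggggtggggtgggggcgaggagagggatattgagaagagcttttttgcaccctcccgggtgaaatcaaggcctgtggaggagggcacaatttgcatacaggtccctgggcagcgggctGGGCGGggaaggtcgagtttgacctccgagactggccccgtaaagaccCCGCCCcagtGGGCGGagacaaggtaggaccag

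The Zfp mRNA were lower on the whole in activated cells than in naive cells. Summed over the 306 members, the level was 2689, 2540 and 2641 FPKM in the naive libraries, 1954, 1954 and 2014 after TCR activation and 2049, 2082 and 2097 with PI3Kdi. The 3 groups did not overlap. In CTL the 292 members summed to 1566, 1578 and 1617 FPKM with IL-2 and to 2020, 2036 and 2142 without it, and again the groups did not overlap. The CTL libraries are in a table of their own, whose normalisation is not given in the sources used here. Levels are therefore compared only within a table. The median member stood at 5.66 ± 0.398 FPKM (SD, n = 3) in naive cells, 3.53 ± 0.0633 after TCR activation, 4.03 ± 0.0718 with PI3Kdi, 3.11 ± 0.0810 in CTL with IL-2 and 4.75 ± 0.247 without, whereas the median of all genes was between 11.2 and 12.3 FPKM in every library. KRAB members had the lower levels: their median was 4.21 ± 0.291 FPKM in naive cells and 2.42 ± 0.0625 after TCR activation, against 10.0 ± 0.655 and 6.14 ± 0.294 for members without KRAB. In these bulk libraries fewer cells of a kind and less RNA of a gene per cell cannot be told apart, and FPKM does not measure the total RNA of a cell.

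**Figure D1:**
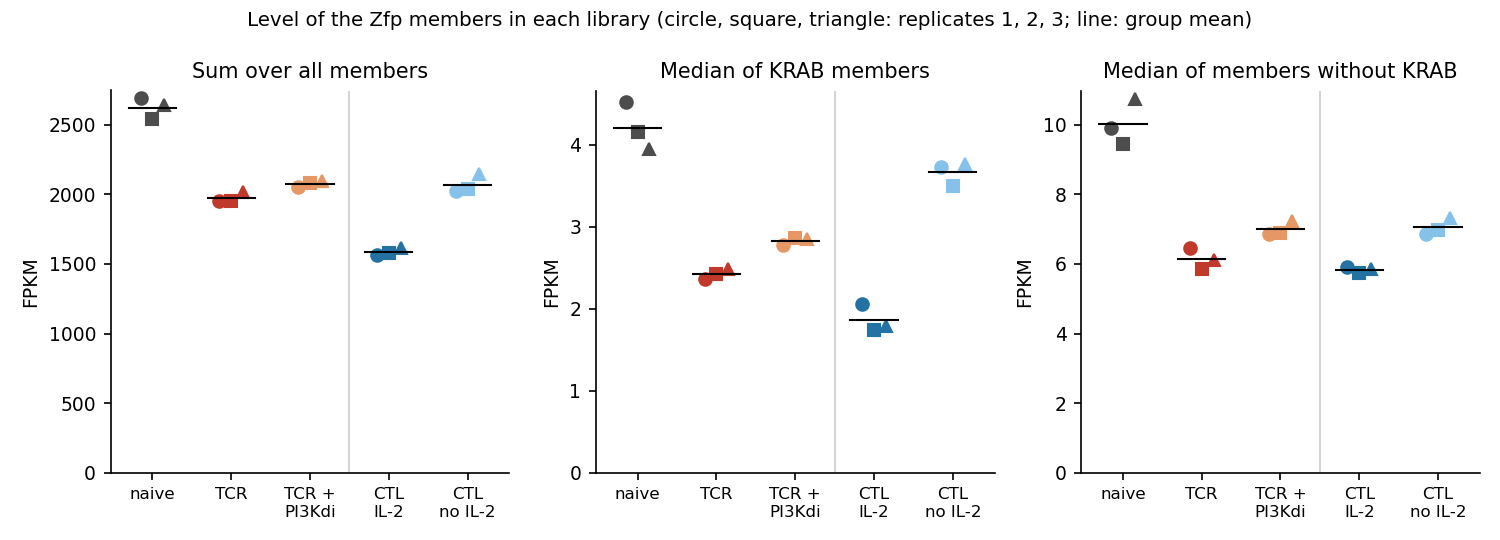
Level of the Zfp members in each library, as the sum over all members and as the median of members with and without KRAB (y axes, FPKM, starting at 0), for the 5 groups (x axis). Points are the 3 libraries of a group and the line is their mean. The grey line separates the 2 tables, between which levels are not compared. The summed level lies between 2540 and 2689 FPKM in naive cells and between 1954 and 2014 after TCR activation.

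What happened to the members upon TCR activation? A member was called changed when its adjusted p in limma was below 0.05, with Benjamini-Hochberg adjustment over all genes of the table, and its fold change above 2, on the scale of log2(FPKM + 0.1), which understates the change of genes near 0. Of the 306 members 105 (34.3%) fell and 23 (7.52%) rose, whereas among all 11262 genes 23.7% fell and 25.0% rose. With a pseudocount of 1 the count of rises was 15. The median log2 fold change was -0.63 over the members and 0.005 over all genes, and 75.2% of the members lay below 0. With the adjusted p alone 184 members were lower and 45 higher, beside 39.8% and 40.9% of all genes. The 3 naive libraries were all above the 3 TCR libraries for 182 members and all below for 46, beside 40.0% and 40.7% of all genes.

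The lower level of the family was set beside other genes of like level. The 5114 other genes with a mean between the 10th and the 90th percentile of the members, 0.765 and 15.9 FPKM, had a median log2 fold change of -0.21, and 28.2% of them fell and 21.2% rose. Among members with a mean below 3 FPKM 34.8% fell and 8.7% rose, beside 32.6% and 30.0% of all genes at that level. Between 3 and 10 FPKM 36.7% of the members fell and 5.0% rose, beside 28.2% and 18.3%, and from 10 FPKM upwards 29.6% fell and 9.86% rose, beside 18.7% and 25.8%. At each level, then, the share of members that rose was below that of all genes by more than the share that fell was above it. These are descriptions of the same libraries, and no test of the family against other genes was made.

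**Figure D2:**
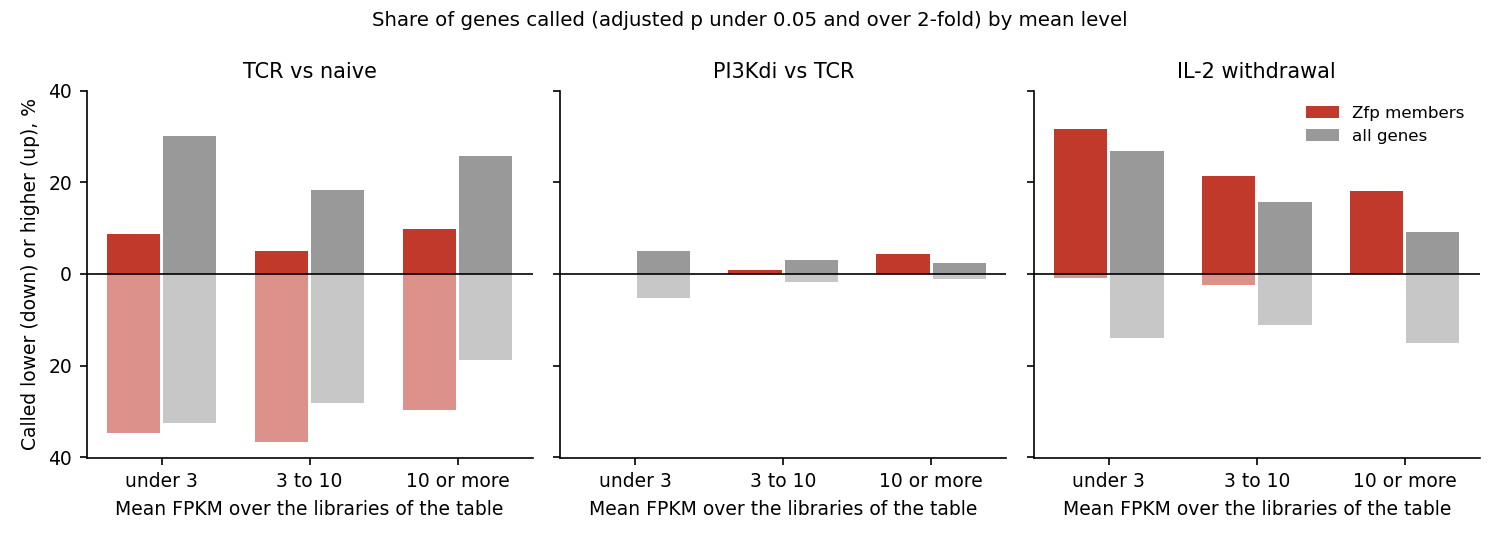
Share of genes called changed (y axis, %, higher upwards and lower downwards) by mean FPKM over the libraries of the table (x axis) for Zfp members (red) and all genes (grey) in the 3 comparisons. Below 3 FPKM 8.7% of the members rose upon TCR activation, beside 30.0% of all genes, and 34.8% fell, beside 32.6%.

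Members with KRAB lay lower than those without. Of 164 with KRAB 65 (39.6%) fell and 8 (4.88%) rose, with a median log2 fold change of -0.77, and of 140 without KRAB 40 (28.6%) fell and 15 (10.7%) rose, with a median of -0.39. By number of fingers, 13 of 53 members with 0 to 4 fingers fell (24.5%) and 8 rose (15.1%), 26 of 87 with 5 to 9 fell (29.9%) and 4 rose (4.6%), 43 of 105 with 10 to 14 fell (41.0%) and 8 rose (7.62%), and 23 of 59 with 15 or more fell (39.0%) and 3 rose (5.08%). The share that fell among members with 0 to 4 fingers was thus near that of all genes, 23.7%, while 25.0% of all genes rose. KRAB, finger number and level go together in this family, and their parts were not told apart. In the chromosome 13 run 11 of 20 members fell and 0 rose in limma, with 0 higher at an unadjusted p below 0.05 as well, and the median was -1.14. In the chromosome 17 run of 19 members, with ACTACANNT in 0 of 17 matched promoters, 7 fell and 3 rose (median -0.69). The chromosome 7 runs with these letters in 10 of 14 and 6 of 10 promoters lay less low. In the first 5 of 15 fell and 0 rose in limma, with 4 higher at an unadjusted p below 0.05 (median -0.26). In the second 3 of 11 fell and 1 rose (median -0.53). In the remaining runs with matched promoters but without these letters 6 of 12, 5 of 11, 3 of 6 and 1 of 10 fell. Their medians were -0.91, -0.78, -0.91 and -0.10. In 3 more runs the letters were in 2 of 6, 2 of 10 and 1 of 6 promoters. Of their members 4 of 7, 3 of 10 and 3 of 6 fell. The medians were -1.21, -0.65 and -0.84, the first of them below that of the chromosome 13 run. In the run without a matched promoter 1 of 6 fell and 1 rose (median -0.23). Of the 52 members with ACTACANNT in the promoter 20 fell and 1 rose, with a median of -0.73, and of the 204 without it 68 fell and 14 rose, with a median of -0.63. The chromosome 13 run held 17 of the 52, and its part in this difference was not told apart.

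**Figure D3:**
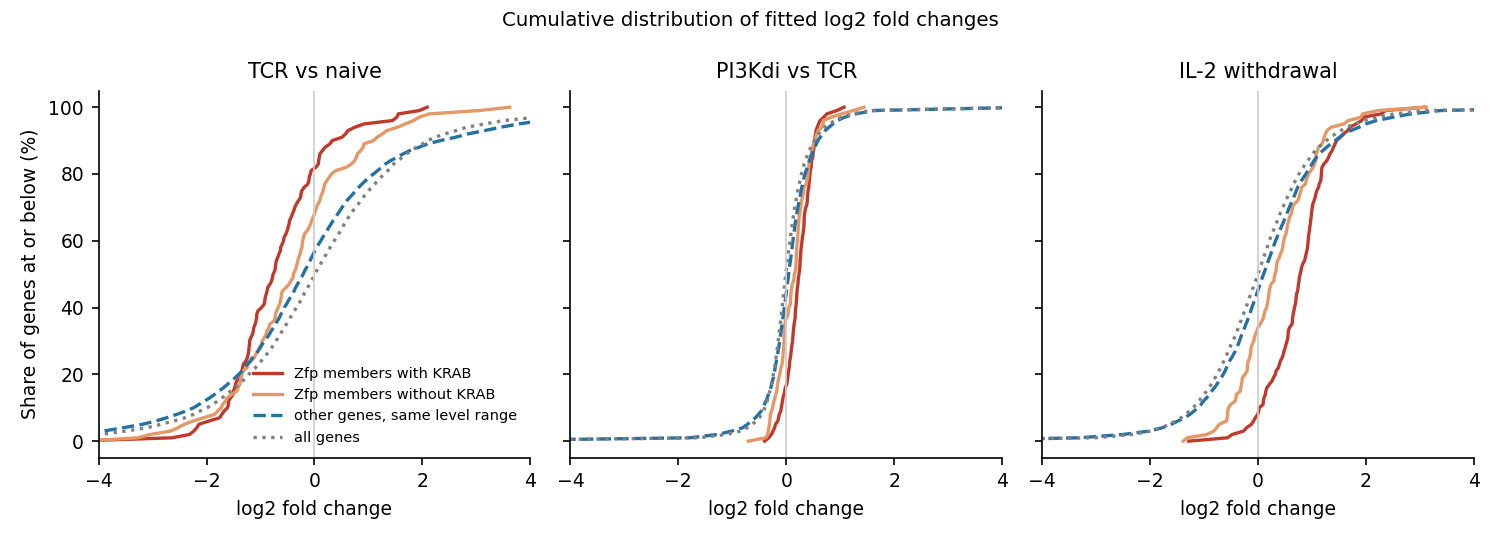
Cumulative share of genes (y axis, %) at or below a fitted log2 fold change (x axis) in the 3 comparisons (IL-2 withdrawal: CTL without IL-2 against CTL with IL-2), for Zfp members with KRAB, members without KRAB, other genes in the level range of the members and all genes. Upon TCR activation the median was -0.77 for KRAB members, -0.39 for members without KRAB and -0.21 for other genes in the level range.

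The deepest falls included members with and without KRAB. Zfp945, a KRAB protein with 18 fingers (chr17:22846697-22867309), stood at 5.91, 4.68 and 4.76 FPKM in naive cells and at 0.12, 0.11 and 0.19 after TCR activation. All activated libraries were thus near 0, and the log2 fold change was -4.45 ± 0.31 (SE, adjusted p = 1.1e-07). Zfp831, a protein with 2 fingers and no KRAB (chr2:174598682-174710832), stood at 10.2, 9.32 and 10.8 FPKM in naive cells and at 0.36, 0.48 and 0.45 after activation. The log2 fold change was -4.27 ± 0.16 (adjusted p = 7.9e-10), which was the next largest fall among the members named here. Zfp467, with 13 fingers, fell by 3.41 on the log2 scale, from a mean of 1.49 FPKM to 0.05. Zfp260, with 12 fingers (chr7:30094782-30107622), stood at 30.9, 25.9 and 24.3 FPKM in naive cells and at 3.27, 3.56 and 2.74 after activation, 8.24-fold lower (adjusted p = 3.7e-09). Zfp652, which binds the corepressor CBFA2T3, stood at 31.6, 26.6 and 37.2 FPKM and at 3.61, 3.68 and 3.86, 8.28-fold lower (adjusted p = 3.6e-09). Several genes overlap Zfp652, among them Abi3 and Phospho1, and 11.4% of its 75-base stretches occur in another gene. Zfp658 fell 7.51-fold, Zfp784 6.4-fold and Zfp362 6.2-fold, with the 3 naive libraries above the 3 activated libraries in each case.

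The 23 members that rose were led by genes of low level in naive cells. Zfp296, a partner of KLF4 in embryonic stem cells (chr7:19577287-19580656), stood at 0.65, 0.93 and 0.48 FPKM in naive cells and at 8.99, 9.68 and 9.27 after activation. The groups were far apart, and the log2 fold change was 3.62 ± 0.19 (adjusted p = 1.2e-08). Zfp768 stood at 0.03, 0.17 and 0 FPKM in naive cells and at 1.9, 1.34 and 1.5 after activation, a log2 fold change of 3.45 ± 0.33 (adjusted p = 1.6e-06) that rests on naive values near 0. Zfp367 stood at 2.69, 2.59 and 2.76 FPKM in naive cells and at 13.4, 17.3 and 14.6 after activation, 5.43-fold higher (adjusted p = 5.4e-09). Zfp870 rose 4.25-fold, Zfp428 4.1-fold, Zfp239 3.87-fold, Zfp948 3.87-fold and Zfp219 3.68-fold. Of these 8 only Zfp870 and Zfp948 carry KRAB. The level of Zfp870 stayed near 1 FPKM after activation, and its call was lost with a pseudocount of 1, with a log2 fold change of 0.80.

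Members known for work on RNA, the ribosome or the spindle included the most abundant member. Of 9 such members 1 (11.1%) rose and 0 fell in limma, beside 25.0% and 23.7% of all genes, and at an unadjusted p below 0.05 4 were higher and 1 (11.1%) lower, beside 41.5% and 40.4%. Zfp106, an RNA-binding protein, stood at 27.4, 23.9 and 27.0 FPKM in naive cells and at 55.7, 63.1 and 62.8 after activation, 2.32-fold higher (adjusted p = 1.8e-07). Zfp207, known as BuGZ for its part in spindle assembly and the most abundant member, stood at 65.8, 47.4 and 67.8 FPKM in naive cells and at 103, 94.5 and 113 after activation. The groups did not overlap, and the 1.73-fold difference (adjusted p = 0.00021) was below the fold limit. Zfp598, a ubiquitin ligase that senses collided ribosomes, was 1.74-fold higher (adjusted p = 2.6e-05) and Zfp593, a factor of the large ribosomal subunit, 1.88-fold higher (adjusted p = 5.7e-05), while Zfp622, another such factor, was at 0.934 of its naive level (adjusted p = 0.52). The dsRNA-binding Zfp346 was at 0.669 of its naive level (adjusted p = 0.00041). Among 16 members with known regulatory roles 4 (25.0%) fell and 1 (6.25%), Zfp367, rose, beside 23.7% and 25.0% of all genes. With the adjusted p alone 12 (75%) were lower and 1 higher, beside 39.8% and 40.9%. Zfp217, part of corepressor complexes, fell 5.35-fold, Zfp318, needed for IgD expression in B cells, 3.6-fold, Zfp292 2.61-fold and Zfp592 2.35-fold. Zfp335, in which a mutation lowers the number of naive T cells, had a log2 fold change of -0.61 ± 0.11, Zfp143 of -0.48 ± 0.11 and Zfp809, which silences retroviral sequences, of -0.08 ± 0.13.

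Scaling each library to its median gene moved all genes by 0.12 on the log2 scale in the comparison of TCR activated with naive cells, and the median of the members was then -0.51, with 92 lower and 27 higher. Zinc finger genes share sequence with each other: 34 members had over 10% of their 75-base stretches in another gene, and without them 94 of 272 fell and 22 rose. The strand setting used in counting is not given in the sources used here, and 136 of the 307 members overlap another annotated gene.

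Did inhibition of PI3K p110δ change the members? The comparison shares the TCR libraries with the one above, so the values are given side by side and no overlap between the 2 is drawn. Of the 306 members 4 (1.31%) rose with PI3Kdi, beside 3.04% of all genes, and 0 fell in limma, beside 2.1%. At an unadjusted p below 0.05 79 members (25.8%) were higher and 9 (2.94%) lower, beside 16.1% and 15.4% of all genes. At an adjusted p below 0.05, without the fold limit, 30 members (9.8%) were higher and 3 (0.98%) lower, beside 9.35% and 8.19% of all genes. The PI3Kdi libraries were all above the TCR libraries for 102 members (33.3%) and all below for 16 (5.23%), beside 18.1% and 18.6% of all genes. The shift was small. The median log2 fold change was 0.19 over the members, -0.01 over all genes and 0.05 over the other genes in the level range, and 25.8% of the members lay below 0. The median was 0.24 for KRAB members, of which 1 rose, and 0.15 for those without KRAB, of which 3 rose. In the chromosome 13 run 0 of 20 passed both limits in limma, and 6 (30.0%) were higher and 0 lower at an unadjusted p below 0.05. The median of that run was 0.25. In the chromosome 7 run of 7 members the median was 0.49, and 4 (57.1%) were higher and 0 lower at that p.

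Of the 4 members that rose, Zfp831 had the largest change. It stood at 0.36, 0.48 and 0.45 FPKM after TCR activation and at 1.32, 1.47 and 1.22 with PI3Kdi, a log2 fold change of 1.44 ± 0.16 (adjusted p = 0.00017), and remained well below the 9.32 to 10.8 FPKM of naive cells. Zfp318 stood at 5.0, 4.73 and 4.87 FPKM and at 11.67, 12.54 and 13.95 with PI3Kdi, a log2 fold change of 1.37 ± 0.15 (adjusted p = 0.00014). In naive cells it stood at 19.81, 13.86 and 20.45 FPKM, so that the highest PI3Kdi library lay just above the lowest naive one. Zfp53, a KRAB protein with 16 fingers, stood at 5.56, 6.61 and 5.50 FPKM and at 12.9, 14.7 and 10.2 with PI3Kdi, 2.1-fold higher (adjusted p = 0.00045), beside 13.7 to 14.4 FPKM in naive cells. Zfp652 stood at 3.61, 3.68 and 3.86 FPKM and at 6.88, 8.87 and 7.68 with PI3Kdi, 2.06-fold higher (adjusted p = 0.00053). Its call was lost without replicate 2, with a log2 fold change of 0.94, and with a pseudocount of 1 Zfp318 was the 1 of these 4 that kept its call.

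Below the fold limit Zfp260 was 1.82-fold higher with PI3Kdi (adjusted p = 0.0018), Zfp354c 1.61-fold (adjusted p = 0.016), Zfp362 1.5-fold (adjusted p = 0.01), Zfp949 1.46-fold (adjusted p = 0.034) and Zfp217 1.46-fold (adjusted p = 0.0054). The 3 members lower at an adjusted p below 0.05 were Zfp703, with a log2 fold change of -0.70, Zfp259, with -0.36, and Zfp639, with -0.30; Zfp703 and Zfp639 are named for this count after their values were seen. Zfp259 is ZPR1, which binds the translation elongation factor eEF1A and has no C2H2 finger. The members that rose most upon TCR activation did not pass the test here. Zfp296 stood at 7.79, 8.94 and 7.48 FPKM with PI3Kdi (log2 fold change -0.21 ± 0.19, adjusted p = 0.51), Zfp367 at 18.7, 18.3 and 16.6 (0.25 ± 0.12, adjusted p = 0.17) and Zfp768 at 1.97, 2.18 and 1.66 (0.28 ± 0.33, adjusted p = 0.6).

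How did the members respond when CTL lost IL-2? Of 292 members 73 (25.0%) rose and 4 (1.37%) fell after 24 h without IL-2, beside 14.3% and 13.9% of all 11211 genes. The median log2 fold change was 0.60 over the members, -0.001 over all genes and 0.10 over the 5068 other genes in the level range, of which 17.1% rose and 12.2% fell. With the adjusted p alone 180 members were higher and 27 lower, beside 35.2% and 36.6% of all genes, and the 2 groups of libraries did not overlap for 188 higher and 33 lower members, beside 37.6% and 38.5%. At each level the share of members that fell was lower than that of all genes: 0.833% beside 13.9% below 3 FPKM, 2.46% beside 11.2% from 3 to 10 FPKM and 0 of 50 members beside 15.1% from 10 FPKM upwards, where 14 members (28.0%) were lower at an unadjusted p below 0.05, beside 46.4%. The shares that rose were 31.7% beside 26.8%, 21.3% beside 15.6% and 18.0% beside 9.2%. With a pseudocount of 1 the count of rises was 33.

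KRAB members again had the larger median. Of 156 with KRAB 48 (30.8%) rose and 1 (0.641%) fell, with a median log2 fold change of 0.78, and of 135 without KRAB 25 (18.5%) rose and 3 (2.22%) fell, with a median of 0.31, beside 14.3% and 13.9% of all genes. The median of KRAB members was 2.07, 1.74 and 1.80 FPKM in the libraries with IL-2 and 3.74, 3.50 and 3.77 in those without. In the chromosome 13 run 8 of 20 members (40.0%) rose and 0 fell in limma, with 0 lower at an unadjusted p below 0.05 as well, and the median was 0.95. In the chromosome 17 run, of which 17 members were in this table, 6 (35.3%) rose, and the median was 0.80. The chromosome 7 runs with ACTACANNT in 10 of 14 and 6 of 10 promoters had smaller shares that rose. In the first 2 of 14 rose (median 0.55), and in the second 1 of 10 (median 0.79). In the remaining runs with matched promoters but without these letters 3 of 12, 3 of 9, 3 of 6 and 2 of 10 rose. Their medians were 0.66, 0.48, 0.81 and 0.47. In the runs with the letters in 2 of 6, 2 of 10 and 1 of 6 promoters 4 of 7, 3 of 9 and 1 of 6 rose. The medians were 1.19, 0.73 and 0.86, the first of them above that of the chromosome 13 run. In that first run 2 members were lower at an unadjusted p below 0.05. In the run without a matched promoter 2 of 6 rose (median 0.83). Among 49 members with ACTACANNT in the promoter 17 (34.7%) rose and 0 fell, with 1 lower at an unadjusted p below 0.05, and the median was 0.81, and among 196 without it 43 (21.9%) rose and 1 (0.51%) fell, with a median of 0.57. Among KRAB members alone the medians were 0.90 for 38 with these letters and 0.77 for 99 without. The chromosome 13 run held 17 of the members with these letters, and its part in these differences was not told apart.

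Zfp831 also led the rises in CTL. It stood at 0.60, 0.46 and 0.28 FPKM with IL-2 and at 4.11, 4.40 and 5.06 without, 8.69-fold higher (adjusted p = 2.8e-06). Zfp874b, in the chromosome 13 run (chr13:67471513-67486241), stood at 0.73, 0.62 and 0.74 FPKM with IL-2 and at 6.43, 6.05 and 7.48 without, 8.46-fold higher (adjusted p = 4.1e-07). Its neighbour Zfp874a stood at 3.37, 2.15 and 1.42 FPKM and at 8.79, 8.45 and 9.31, 3.92-fold higher (adjusted p = 8.5e-05). The 2 proteins have 447 residues and 10 fingers each, and 8.34% and 4.71% of the 75-base stretches of Zfp874b and Zfp874a occur in another gene. Zfp949, a KRAB protein with 11 fingers, stood at 1.39, 0.90 and 1.08 FPKM with IL-2 and at 6.30, 5.81 and 6.61 without, 5.25-fold higher (adjusted p = 2.3e-06). Zfp945 stood at 1.02, 0.72 and 0.66 FPKM and at 4.36, 4.11 and 4.74, 5.07-fold higher (adjusted p = 3.7e-06). Zfp354c rose 4.98-fold, from a mean of 0.187 FPKM to 1.35, and lost its call with a pseudocount of 1, with a log2 fold change of 0.97. Zfp358 rose 3.94-fold and Zfp273 3.85-fold. The most abundant member that rose, Zfp386, a KRAB protein, stood at 13.97, 13.51 and 14.19 FPKM with IL-2 and at 40.5, 40.3 and 48.3 without, 3.07-fold higher (adjusted p = 7.3e-07).

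The 4 members that fell without IL-2 were Zfp608, Zfp609, Zfp296 and Zfp9. Zfp608 stood at 4.77, 5.52 and 4.56 FPKM with IL-2 and at 1.83, 1.94 and 1.72 without, 2.61-fold lower (adjusted p = 1.6e-05), and in the first table it was between 0.14 and 0.47 FPKM in every library. Zfp609, its relative, which binds the cohesin loader NIPBL, stood at 8.30, 8.89 and 9.37 FPKM with IL-2 and at 3.26, 3.90 and 2.98 without, 2.59-fold lower (adjusted p = 1.3e-05), after a 2.96-fold rise upon TCR activation. Zfp296 stood at 4.31, 6.20 and 5.85 FPKM with IL-2 and at 2.08, 2.80 and 2.06 without, 2.3-fold lower (adjusted p = 0.00026), and its call was lost with a pseudocount of 1, with a log2 fold change of -0.96. Zfp9, named after its values were seen, was at most 0.5 FPKM in every library. Zfp652 went against most members that fell upon TCR activation, at 30.6, 36.0 and 40.1 FPKM with IL-2 and 18.7, 22.0 and 22.9 without (log2 fold change -0.74 ± 0.12, adjusted p = 0.00036), within the fold limit. Zfp207 was likewise lower without IL-2 by less than the limit, at 0.675 of its level with IL-2 (adjusted p = 0.00063), and Zfp106 at 0.674 (adjusted p = 0.00033).

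**Figure D4:**
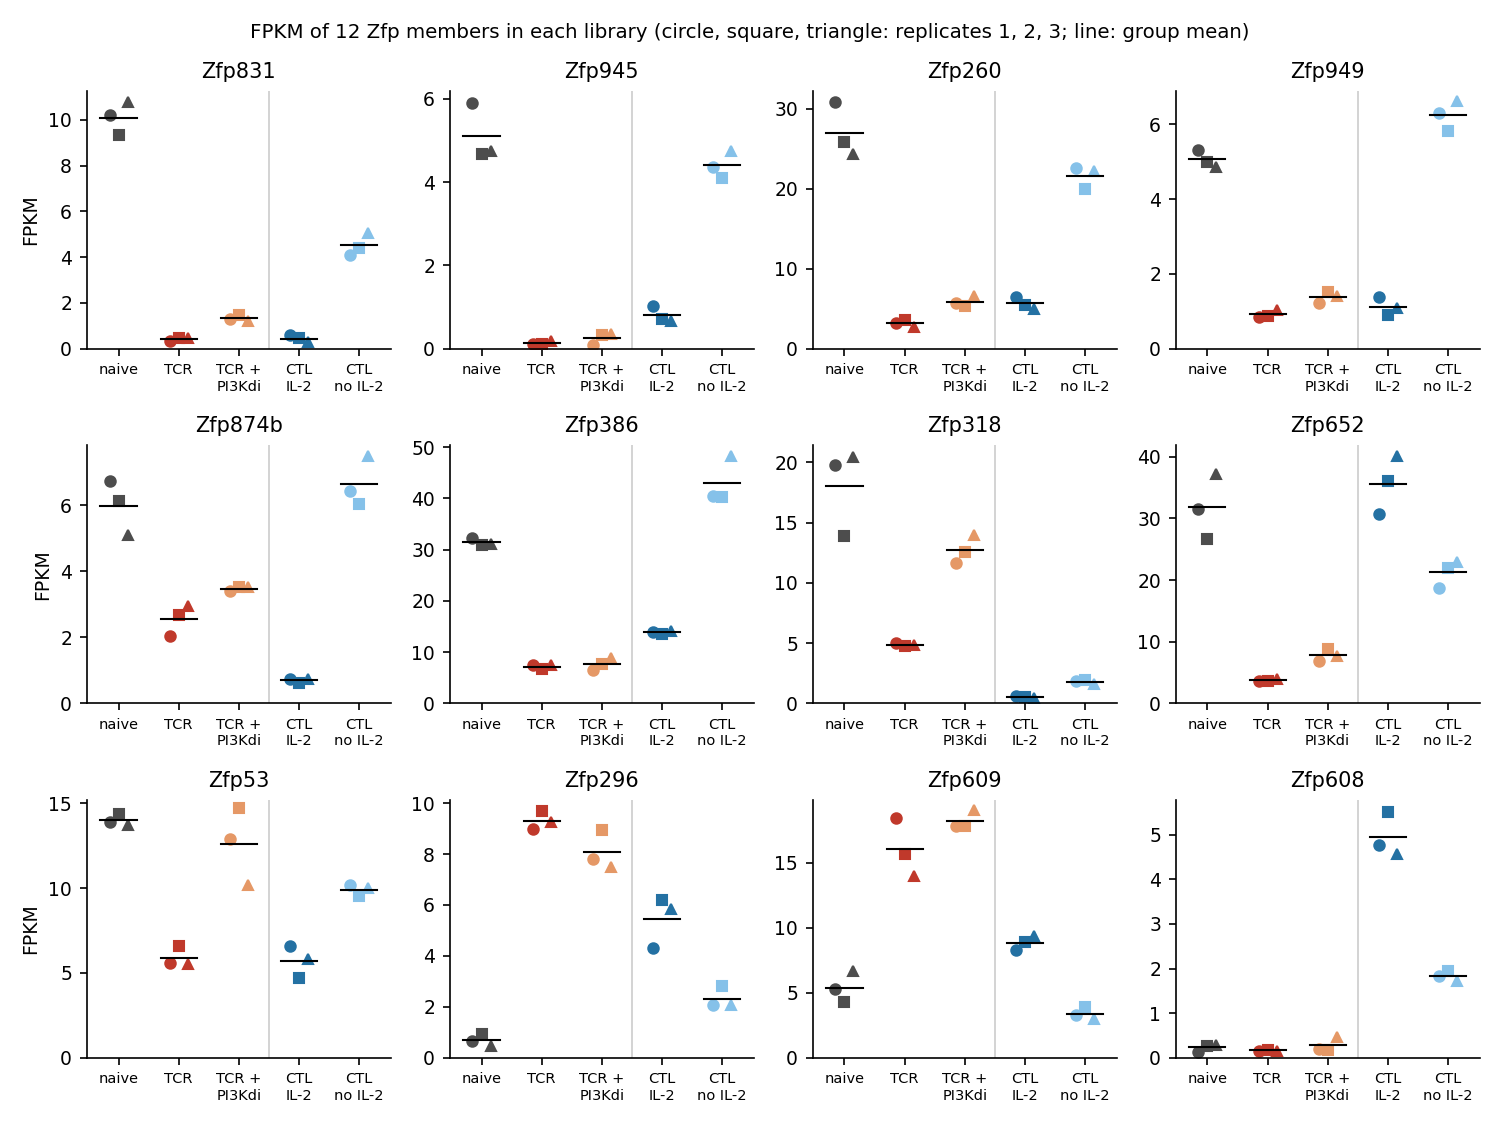
FPKM (y axes, linear, starting at 0) of 12 members in each of the 15 libraries by group (x axes). Points are libraries and the line is the group mean; the grey line separates the 2 tables. Zfp831 stands at 9.32 to 10.8 FPKM in naive cells, at 0.36 to 0.48 after TCR activation and at 1.22 to 1.47 with PI3Kdi, and in CTL at 0.28 to 0.60 with IL-2 and 4.11 to 5.06 without.

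The 2 tables share no library, so their calls can be set against each other. Of 103 members that fell upon TCR activation and were measured in CTL, 54 (52.4%) rose without IL-2, which is 74.0% of the 73 that rose. Among all genes present in both tables, 10637 in number, 1078 of 2534 (42.5%) did so, 74.6% of the 1445 that rose. The 54 members comprised 36 with KRAB and 18 without. Of the 21 members that rose upon TCR activation and were measured in CTL, 3 (14.3%) fell without IL-2, namely Zfp296, Zfp609 and Zfp9, which is 75% of the 4 that fell. Among all genes 1075 of 2513 (42.8%) did so, 76.6% of the 1404 that fell. A fitted fold change below 0 upon TCR activation and above 0 without IL-2 was found for 201 of 291 members (69.1%) and for 39.2% of all genes. These shares depend on those of each comparison alone. Upon TCR activation 75.2% of the members lay below 0, beside 49.8% of all genes. Without IL-2 79.5% lay above 0, beside 49.9%. A link between the 2 comparisons beyond these shares was not tested.

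**Figure D5:**
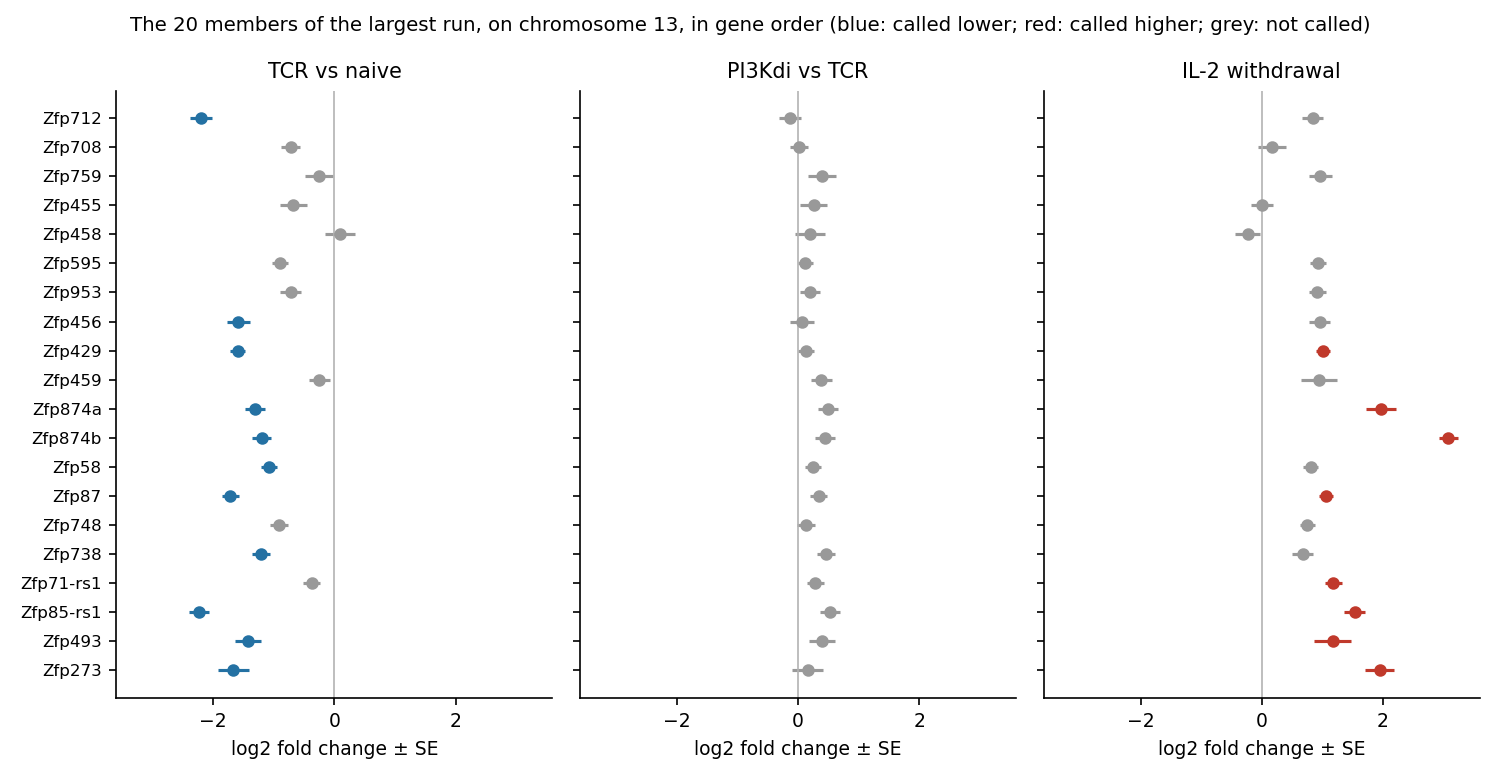
Fitted log2 fold change ± SE (x axes) of the 20 members of the chromosome 13 run, in gene order (y axis), in the 3 comparisons; blue marks members called lower, red those called higher and grey those not called. Upon TCR activation 11 are called lower, with PI3Kdi 0 are called, and without IL-2 8 are called higher, Zfp874b furthest at 3.08.

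Related zinc finger families were looked at in the same way. Of 35 Zbtb genes, which pair zinc fingers with a BTB domain, 9 (25.7%) fell and 3 (8.57%) rose upon TCR activation, beside 23.7% and 25.0% of all genes (median log2 fold change -0.47), 1 (2.86%) rose and 2 (5.71%) fell with PI3Kdi, beside 3.04% and 2.1% (median 0.10), and of 33 measured in CTL 4 (12.1%) rose and 1 (3.03%) fell without IL-2, beside 14.3% and 13.9% of all genes (median 0.38). With the adjusted p alone 21 Zbtb genes (60.0%) were lower upon TCR activation, beside 39.8% of all genes, and 17 (51.5%) were higher without IL-2, beside 35.2%. Of 13 Zscan and Zkscan genes, in which a SCAN domain precedes the fingers, 6 (46.2%) fell and 0 rose in limma upon TCR activation, with 1 higher at an unadjusted p below 0.05 (median -0.76), and of 12 in CTL 5 (41.7%) rose and 0 fell without IL-2, with 0 lower at an unadjusted p below 0.05 (median 0.88). With PI3Kdi 0 of the 13 passed both limits, while 8 (61.5%) were higher and 0 lower at an unadjusted p below 0.05, beside 16.1% and 15.4% of all genes (median 0.40). The differences between the families were not tested.

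The partners through which KRAB proteins act were examined next. Of 21 measured genes for TRIM28 and its heterochromatin partners 8 (38.1%) rose and 2 (9.52%), Atf7ip and Chd3, fell upon TCR activation, beside 25.0% and 23.7% of all genes. Trim28 itself stood at a mean of 92.9 FPKM in naive cells and 248 after activation, a log2 fold change of 1.41 (adjusted p = 1.1e-08), and was at 248 with PI3Kdi (log2 fold change 0.005). Setdb1 had a log2 fold change of 0.59 (adjusted p = 5.4e-05), within the fold limit, and Cbx5, which encodes an HP1 protein, of 2.11 (adjusted p = 6.9e-09). Uhrf1, Suv39h1, Suv39h2, Hdac2, Dnmt1 and Dnmt3b were the other genes that rose, and Uhrf1 and Dnmt1 are known to be made by dividing cells. With PI3Kdi 0 of the 21 passed both limits in limma, and at an unadjusted p below 0.05 3 (14.3%) were higher and 1 (4.76%) lower, beside 16.1% and 15.4% of all genes. Without IL-2 Hdac2, Suv39h2 and Uhrf1 fell (14.3% of the list) and Chd3 rose (4.76%), beside 13.9% and 14.3% of all genes. With the adjusted p alone 14 (66.7%) were lower and 3 (14.3%) higher, beside 36.6% and 35.2%. Trim28 was at 66.9 FPKM beside 114 with IL-2 (log2 fold change -0.77, adjusted p = 1.1e-05). Chd3, a subunit of the NuRD complex, followed the pattern of the members, at a mean of 134 FPKM in naive cells, 21.2 after activation, 17.9 in CTL with IL-2 and 62.9 without. Of the HUSH complex, which silences transposable elements with SETDB1, 3 of 6 listed genes were measured: Pphln1 rose upon TCR activation, with a log2 fold change of 1.42 (adjusted p = 3.7e-07), Mphosph8 and Morc2a did not pass both limits, and 0 of the 3 passed them in the other comparisons, where 1 was lower with PI3Kdi and all 3 were lower without IL-2 at an unadjusted p below 0.05, beside 15.4% and 37.7% of all genes.

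Markers of cell state and of other cells also differed between the groups. The 6 naive T cell genes examined summed to 1416 to 1597 FPKM in naive cells, 210 to 290 after TCR activation, 408 to 570 with PI3Kdi, 133 to 166 in CTL with IL-2 and 877 to 982 without. The 6 activated T cell genes summed to 118 to 137 FPKM in naive cells, 1350 to 1706 after TCR activation and 1384 to 1460 with PI3Kdi, and in CTL to 1084 to 1138 with IL-2 and 243 to 294 without. Among B cell genes Cd79b led, with a mean of 20.3 FPKM in naive cells, 3.02 after activation and 3.29 with PI3Kdi, while Ms4a1 had means of 0.510, 0.733 and 0.0633 and Pax5 and Ebf1 were not among the genes listed. In CTL Cd79b was at 2.74 to 6.30 FPKM with IL-2 and 10.8 to 20.6 without. Of 6 myeloid genes Itgam alone was listed in the first table, at 0.3 FPKM or less, and in CTL the 2 listed went opposite ways, Fcer1g with means of 47.0 FPKM with IL-2 and 9.48 without and Itgam with means of 0.293 and 4.09, while Lyz2, Csf1r, Adgre1 and Cd14 were not listed. Of 6 dendritic cell genes H2-Ab1 led, the sum being 1.41 to 5.22 FPKM in naive cells, 3.86 to 9.0 after activation and 0.60 to 1.20 with PI3Kdi, and in CTL 17.1 to 20.4 with IL-2 and 12.4 to 16.3 without. Of 4 CD4 T cell genes Cd40lg, which activated CD8 T cells can also express, led in the first table, the sum being 9.59 to 10.8 FPKM in naive cells, 19.8 to 31.9 after activation and 5.59 to 7.09 with PI3Kdi, and in CTL Zbtb7b led, the sum being 21.5 to 29.6 with IL-2 and 35.1 to 42.8 without. Cd4 was not listed in the first table and had means of 0.23 and 1.40 FPKM in CTL with and without IL-2. Of 4 NK cell genes Eomes, which CD8 T cells also express, led in every group. The NK cell genes summed to 12.95 to 15.82 FPKM in naive cells, 12.4 to 23.8 after activation and 4.03 to 8.24 with PI3Kdi. In CTL they summed to 77.7 to 165 with IL-2 and 12.1 to 24.2 without. The other NK cell gene listed in CTL, Klrb1c, had means of 1.65 FPKM with IL-2 and 2.74 without, and Ncr1 was not listed. Of 5 stromal genes Pecam1, which naive T cells also express, and Pdgfrb were listed, and they summed to 56.5 to 67.0 FPKM in naive cells, 2.60 to 3.62 after activation and 4.94 to 8.34 with PI3Kdi, and in CTL to 22.7 to 31.2 with IL-2 and 51.8 to 63.6 without. None of the 4 erythroid genes was listed. The part of any of these in the levels of the members was not tested.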

How the data were processed

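RNA was sequenced as stranded, polyA-selected libraries, read as paired ends of 75 bases. The authors deposited FPKM with 2 decimals, in 1 table for the 9 naive and TCR activated libraries and 1 for the 6 CTL libraries. The submitters' processing notes name STAR 2.5.2b, Subread 1.5.1, edgeR and the build mm10. By the study's methods, genes of low count were filtered out and the authors computed FPKM after TMM normalisation with the summed exon length of each gene. For the CTL table the processing notes alone were used, since that experiment is not part of the article, and its normalisation is not given in the sources used here. Where a cell held no value (1039 cells of the naive and TCR table), 0 was used. Read totals per library are not given in the sources used here. Low values of genes with under 2000 bases of exon did not settle them, since at the best spacing 36.4% to 65.5% lay within 0.15 of a whole number, so the depth is unknown and no floors or intervals from counts are given.

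Each table was fitted in limma 3.58.1 (R 4.3.3) on log2(FPKM + 0.1) with an intensity trend, without a replicate block, and p-values were adjusted over all its genes. The script was tested on simulated data. Groups follow the sample titles. In the treatment labels of 2 CTL libraries kept in IL-2 the cytokine is written with another number, and their titles were followed. Replicate numbers mark shared pools of mice in the first table. The CTL libraries are titled BR1, BR2 and BR3, as are those of each group in the first table. No source used here says that the CTL replicates came from separate mice or cultures. Their p-values thus measure the spread between these samples, which may be technical. Deviations of same-numbered samples correlated at 0.27, 0.20 and 0.51 for PI3Kdi and TCR, at 0.12, 0.17 and 0.26 in CTL and at -0.14, 0.23 and -0.18 for TCR and naive.

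Members, gene lists and tests were chosen with earlier results of these data known. Named members are, per comparison, the 8 largest rises and falls among those called, moved alike in the 3 pairs and at 1 FPKM or more in a group, the 5 highest levels per table, and the members of the lists. Fingers and KRAB were counted in translated GENCODE M21 transcripts, and positions and promoters come from RefSeq GRCm38; 293 members matched by gene ID and 14 by an older symbol. Alternatives were another pseudocount, a level filter, median scaling, the replicate block, no trend, the compared groups alone, other fold limits and leaving out each replicate. Of the marker lists, 1 gene is not reported here.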

Additional observations from a re-analysis of the deposited data

How the results depend on the processing

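The direction of the median log2 fold change of the members was kept in all 3 comparisons under every alternative that was run. With a pseudocount of 1 the counts upon TCR activation were 76 lower and 15 higher and the median was -0.47; with PI3Kdi 1 was higher, with a median of 0.14, and without IL-2 33 were higher and 2 lower, with a median of 0.42, the larger pseudocount by its construction shrinking the change of low genes. Median scaling gave medians of -0.51 upon TCR activation and 0.16 with PI3Kdi; the cause was not tested. With a fold limit of 1.5 the counts were 159 lower and 39 higher upon TCR activation, 1 lower and 15 higher with PI3Kdi, and 10 lower and 145 higher without IL-2. Without a fold limit they were 184 and 45, 3 and 30, and 27 and 180. Leaving out 1 replicate gave 101 to 109 lower and 22 to 25 higher upon TCR activation (median -0.68 to -0.58), 0 lower and 4 higher with PI3Kdi (median 0.19 to 0.20) and 4 lower and 66 to 83 higher without IL-2 (median 0.56 to 0.67). With the replicate block the counts were 105 lower and 23 higher, 0 and 4, and 4 and 73, as without it, and the block changed no call of a named member. Of 53 calls of named members 41 were kept under every alternative, 0 changed sign, 11 were lost with a pseudocount of 1 (Zfp870 and Zfp874b upon TCR activation, Zfp831, Zfp652 and Zfp53 with PI3Kdi, and Zfp296, Zfp318, Zfp354c, Zfp467, Zfp658 and Zfp784 without IL-2), 2 without replicate 1 (Zfp874b upon TCR activation, with a log2 fold change of -0.97, and Zfp362 without IL-2, with 0.94) and 1 without replicate 2 (Zfp652 with PI3Kdi, with 0.94). The alternatives chosen after seeing the data, leaving out members with over 10% shared 75-base stretches or those renamed in RefSeq, kept every count within 1.5 times. The unknown depth limits what can be said of members below about 1 FPKM.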
